A study of Homo sapiens with 18 samples.

Results

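The comparison set hiF-T cells with guides against KDM1A beside hiF-T cells with guides against SPP1, without using the control libraries as the reference. Its members were chosen by the labelled target alone: 4 libraries of KDM1A knockdown and 6 libraries of SPP1 knockdown, 10 of the 18 libraries in the series. The 4 control libraries (backbone, guides 1 and 2) are given beside some levels, and the other 4 carry CDKN1A guides. hiF-T cells are fibroblast-like human cells derived from the BJ skin fibroblast line, and they carry a telomerase transgene (hTERT) whose expression can be induced. The labels give the genotype as wild type in every library. KDM1A knockdown was made with guides 2 and 3 and SPP1 knockdown with guides 1, 2 and 3, with biological replicates 1 and 2 for each guide. All 10 libraries share the cell line and the CRISPR treatment, and they differ in the gene that the guide targets. How the guides lower the mRNA, whether the pools are clonal and whether replicates came from separate cultures were not stated in the labels. The series studies what marks single somatic cells that can be reprogrammed to pluripotency. Poly(A) RNA was sequenced, and the authors deposited estimated counts per transcript.

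KDM1A encodes LSD1, an enzyme that removes methyl groups from lysines of histone H3. It works with the CoREST scaffold and histone deacetylases in a complex that silences genes, and the factor REST brings that complex to neuronal genes in cells that are not neurons. SPP1 encodes osteopontin, a secreted acidic glycoprotein of bone and wounds that binds integrins and the hyaluronan receptor CD44. Fibroblasts make it in small amounts, and injury, inflammation and growth factors raise it.

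Levels are given in CPM, the counts of a gene scaled to the same library total in every library, after TMM scaling. For KDM1A knockdown the 4 values run guide 2 replicate 1, guide 2 replicate 2, guide 3 replicate 1 and guide 3 replicate 2, and for SPP1 knockdown the lowest, median and highest of 6 are given. Fold changes are KDM1A knockdown over SPP1 knockdown, so a positive log2 value means a higher level in KDM1A knockdown. Called genes are those with an adjusted p under 0.05 in edgeR's quasi-likelihood test, with the Benjamini-Hochberg correction over all 13527 genes tested. Libraries of a guide share that guide, so p-values measure the spread between these libraries, which may be technical in part. In bulk RNA, fewer cells with a transcript and less of it per cell cannot be told apart.

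The libraries held 13216585 to 17016094 estimated counts in KDM1A knockdown and 11907197 to 16510012 in SPP1 knockdown. Of 14 fibroblast markers, 13 had a median of at least 1 CPM in each group, but THY1, a surface marker of many fibroblasts, was under 0.5 CPM in all 10 libraries. The defining markers KRT5 and TP63 (keratinocytes), TYR and PMEL (melanocytes) and CDH5 (endothelial cells) were also under 0.5 CPM in every library. The 9 endothelial markers summed to 71.3 to 95.6 CPM in KDM1A knockdown and 56.5 to 75.8 CPM in SPP1 knockdown, and the 10 leukocyte markers to 51.3 to 58.3 CPM in KDM1A knockdown and 59.5 to 71.4 CPM in SPP1 knockdown. Their part in the results was not tested. SPP1 guide 3 replicate 2 stood apart from the other SPP1 libraries, at a chi-square per gene of 13.7 to 21.6 against each, and without it 1587 genes were called, against 1611 with it.

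KDM1A mRNA (ENSG00000004487, GRCh38, chromosome 1, 23019443 to 23083689) had 73.2, 75.0, 50.7 and 52.0 CPM in KDM1A knockdown, against 106 to 126 CPM (median 116) in SPP1 knockdown. The groups did not overlap, and guide 3 left less KDM1A mRNA than guide 2. KDM1A knockdown held 54.3% of the level in SPP1 knockdown (log2 -0.88 ± 0.09, adjusted p 5.75e-06). The control libraries had 110.1 to 125 CPM.

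SPP1 mRNA (ENSG00000118785, chromosome 4, 87975650 to 87983426) had 135, 134, 126 and 133 CPM in KDM1A knockdown, against 21.7 to 63.0 CPM (median 37.2) in SPP1 knockdown. Every KDM1A library lay above every SPP1 library, with SPP1 mRNA 3.33-fold higher in KDM1A knockdown (log2 1.74 ± 0.21, adjusted p 3e-05). The control libraries had 55.2 to 72.7 CPM, below every KDM1A library and overlapping SPP1 knockdown, with a mean of 64.6 CPM between the means of both groups. Within SPP1 knockdown, guide 1 left 24.2 and 26.9 CPM, guide 2 left 47.4 and 55.2 CPM, and guide 3 left 63.0 and 21.7 CPM. For each targeted mRNA a two-sided exact permutation test that took the 10 libraries singly gave p = 0.00952, the smallest that 210 arrangements allow. Pairs of libraries share a guide, and the same exact test over the means of the 5 guides gave p = 0.2 for each, the smallest that 10 arrangements allow.

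**Figure D1:**
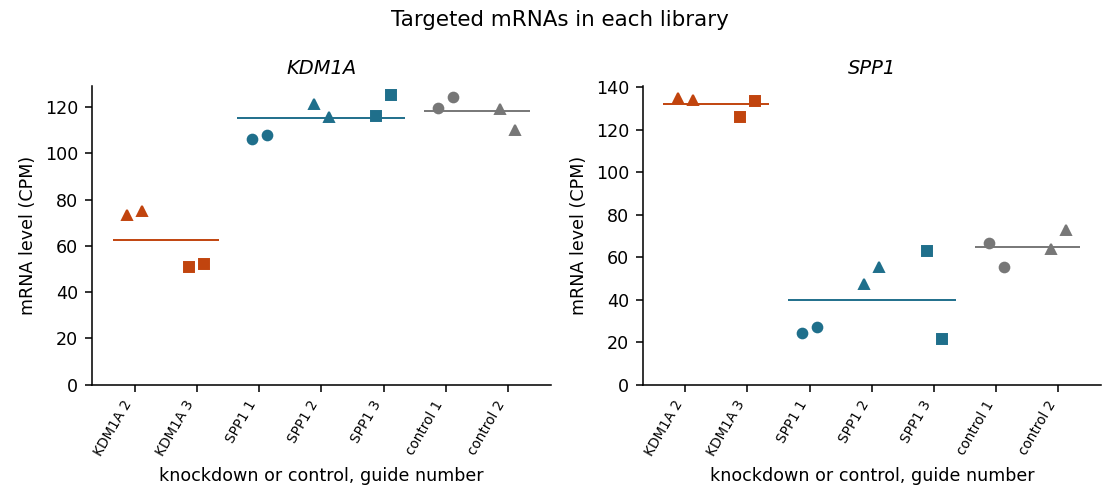
KDM1A mRNA (left) and SPP1 mRNA (right) in each library, in CPM on a linear axis. The x axis gives the targeted gene and guide number, points are libraries and lines are group means. KDM1A mRNA is lowest with KDM1A guide 3, and SPP1 mRNA in KDM1A knockdown lies at 126 to 135 CPM, above every SPP1 library and every control library.

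Of 13527 genes tested, 1611 were called (11.9%), 934 higher (6.90%) and 677 lower (5.0%) in KDM1A knockdown. Among them 199 differed at least 2-fold, of which 155 were higher and 44 lower. The 10 libraries did not overlap between groups for 1010 of the 1611 called genes, and for 9.49% of all genes tested. Without KDM1A guide 2 replicate 1 the test called 801 genes, and without its replicate 2 it called 775. With the libraries of each guide summed, so that guides took the place of libraries as the replicates, 244 genes were called, 195 higher and 49 lower. The comparison alone does not say which knockdown moved a gene. The mean of the control libraries was nearer to SPP1 knockdown than to KDM1A knockdown for 171 of the 199 genes that differed at least 2-fold (85.9%), for 70.1% of all called genes and for 53.7% of all genes tested.

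**Figure D2:**
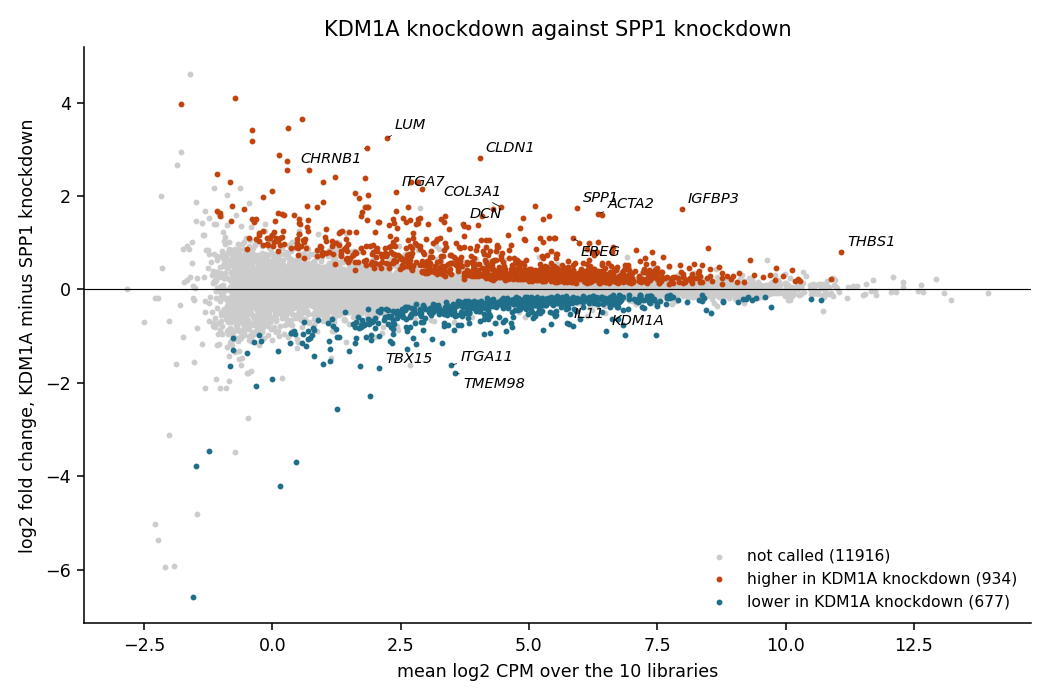
Log2 fold change of KDM1A knockdown over SPP1 knockdown (y axis) against the mean log2 CPM over the 10 libraries (x axis), 1 point per gene tested. Orange points are the 934 genes called higher, blue points the 677 called lower and grey points the rest. Of the called genes at least 2-fold apart, 155 lie above 0 and 44 below.

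The guides against KDM1A differed from each other. KDM1A mRNA averaged 74.1 CPM with guide 2 and 51.4 CPM with guide 3. Guide 2 lay farther than guide 3 from SPP1 knockdown for 1288 of the 1611 called genes (80.0%). The calls themselves rest on both guides, and this share was not computed over all genes tested. A test of guide 2 against guide 3, added after the data were seen and fitted with 1 coefficient per guide, called 832 genes (6.15%), 547 higher and 285 lower with guide 2. Set against the same 6 SPP1 libraries, guide 2 alone gave 1951 called genes and guide 3 alone gave 261. The test of guide 2 against guide 3 is also given beside genes below.

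Of the 127 called genes named by rule, 36 were called under all 24 alternatives, which include each library and each guide left out and the libraries of each guide summed. Beside KDM1A and SPP1 themselves, these included LUM, CHRNB1, CLDN1, KCNN4, IL21R, PLAAT3, BIRC3, LAT2, ITGA7, JUP, CDA, COL3A1, LAMA5, LOXL3, SCN2A, SYT1, IFI44L, OAS3, CLU, C1QTNF5, EREG, WNT16, PERP, KRT80, PKP2, FOXC2, TM7SF2 and KLF2 among the rises and TMEM98, TBX15, ITGA11, MAPK8IP1 and IL11 among the falls. Of the 127, 82 were not called with the libraries of each guide summed, and 82 were not called without KDM1A guide 2.

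**Figure D3:**
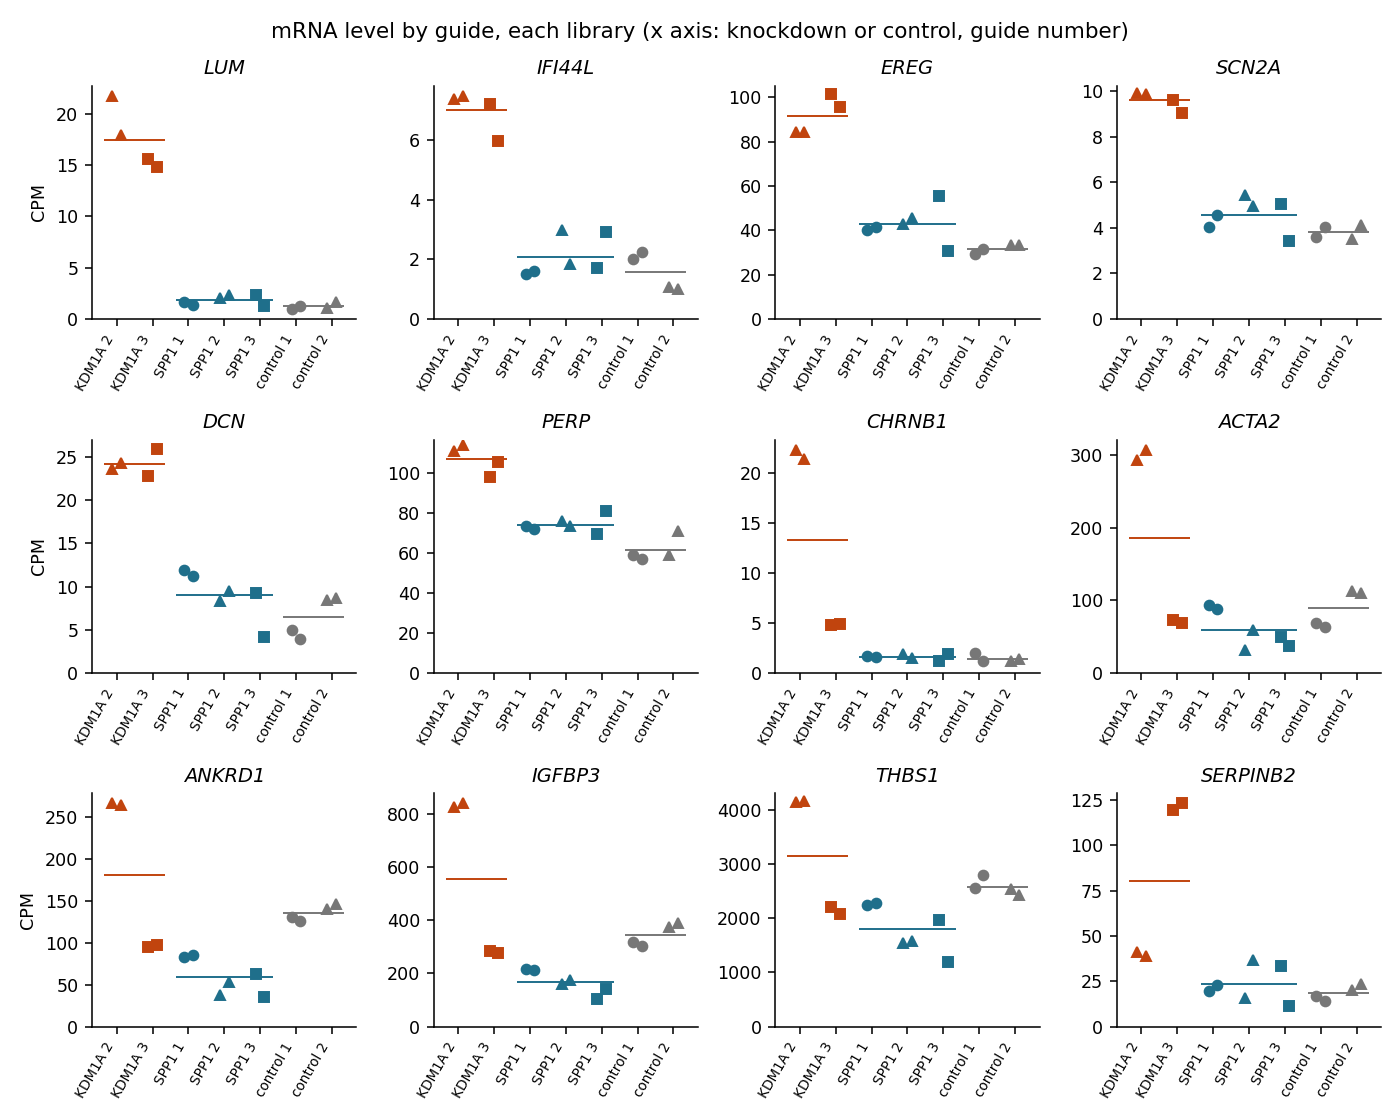
Levels of 12 genes in each library (CPM, linear axes from 0), by targeted gene and guide number, with lines at group means. LUM, IFI44L, EREG, SCN2A, DCN and PERP are high with both KDM1A guides. CHRNB1, ACTA2, ANKRD1, IGFBP3 and THBS1 are highest with guide 2, and SERPINB2 is highest with guide 3.

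The largest rise among genes above the level set for naming was LUM, which encodes lumican, a small proteoglycan that spaces collagen fibrils. LUM had 21.7, 17.9, 15.6 and 14.8 CPM in KDM1A knockdown, against 1.25 to 2.39 CPM (median 1.86) in SPP1 knockdown. It was 9.41-fold higher (log2 3.23 ± 0.24, adjusted p 7.05e-08), and no library overlapped. CHRNB1, a subunit of the muscle acetylcholine receptor, had 22.2, 21.3, 4.73 and 4.90 CPM in KDM1A knockdown, against 1.23 to 1.87 CPM (median 1.64) in SPP1 knockdown. It rose 8.17-fold (adjusted p 2.93e-05), and was 4.52-fold higher with guide 2 than with guide 3 (adjusted p 4.22e-06). CLDN1, which seals tight junctions, had 68.3, 69.9, 40.5 and 38.3 CPM in KDM1A knockdown, against 4.83 to 9.11 CPM (median 8.37) in SPP1 knockdown, and rose 7.01-fold (adjusted p 1.04e-07). The groups lay far apart for all 3 genes.

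Signalling and immune genes followed. KCNN4, a potassium channel opened by calcium, rose 5.30-fold, with 8.79, 7.92, 4.29 and 3.77 CPM in KDM1A knockdown against 0.669 to 1.92 CPM (median 1.07) in SPP1 knockdown (adjusted p 1.96e-05). IL21R, the receptor for interleukin-21, rose 5.20-fold and averaged 9.71 ± 4.59 CPM in KDM1A knockdown and 1.84 ± 0.687 CPM in SPP1 knockdown (SD, n = 4 and 6). BIRC3, an inhibitor of apoptosis induced by NF-kappaB, rose 4.90-fold, with 25.2, 24.8, 9.74 and 10.6 CPM in KDM1A knockdown against 2.25 to 5.02 CPM (median 3.21) in SPP1 knockdown. LAT2, an adaptor of immune receptor signalling, rose 4.44-fold, with 21.4, 22.3, 14.8 and 13.9 CPM in KDM1A knockdown against 3.14 to 4.93 CPM (median 4.18) in SPP1 knockdown. PLAAT3, a phospholipase of lipid droplets and membranes, rose 4.93-fold (log2 2.30 ± 0.16, adjusted p 4.49e-08). All 5 genes were without overlap between groups, and higher with guide 2 than with guide 3 (adjusted p 1.04e-05 to 0.0389).

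Among the remaining large rises, ITGA7, a laminin-binding integrin chain, and JUP, the junction protein plakoglobin, are given with their lists. CDA, which deaminates cytidine, rose 3.90-fold, with 6.81, 8.67, 7.64 and 6.53 CPM in KDM1A knockdown against 1.06 to 4.5 CPM (median 1.36) in SPP1 knockdown (adjusted p 0.000362). Its guides against KDM1A were not called different (log2 of guide 2 over guide 3 0.13 ± 0.27). A4GALT, which makes the glycolipid Gb3, rose 4.21-fold, averaging 7.47 ± 1.56 CPM in KDM1A knockdown and 1.76 ± 0.957 CPM in SPP1 knockdown (adjusted p 8.72e-05).

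Falls of at least 2-fold were fewer than such rises. TMEM98, a membrane protein, had 3.72, 3.43, 6.69 and 9.17 CPM in KDM1A knockdown, against 14.7 to 23.5 CPM (median 20.9) in SPP1 knockdown, and was 3.44-fold lower (adjusted p 1.18e-05). MAPK8IP1, a scaffold of the JNK pathway, had 2.61, 2.99, 5.67 and 5.78 CPM in KDM1A knockdown, against 8.67 to 10.8 CPM (median 9.43) in SPP1 knockdown (log2 -1.16 ± 0.18, adjusted p 0.000358). GFPT2, an enzyme of the hexosamine pathway, was 2.21-fold lower, with 4.28, 4.87, 7.49 and 8.23 CPM in KDM1A knockdown against 10.2 to 18.5 CPM (median 14.0) in SPP1 knockdown. None of these 3 genes overlapped between groups, and all 3 were lower with guide 2 than with guide 3.

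FNDC4, TMEM132B and C3orf18 fell by 1.28 to 1.53 on the log2 scale (adjusted p 0.000962 to 0.00319), each without overlap. FNDC4, a secreted fibronectin type III protein, was lowest with guide 2, at 0.554 and 0.437 CPM, against 1.45 and 2.14 CPM with guide 3. PPARG, the master regulator of fat cell differentiation, fell 2.49-fold, with 1.27, 1.5, 1.09 and 2.70 CPM in KDM1A knockdown against 1.91 to 6.49 CPM (median 4.5) in SPP1 knockdown (adjusted p 0.0207). The PPARG groups overlapped, and it was not called without KDM1A guide 2 replicate 1 or 2 (log2 -1.22 and -1.26) or KDM1A guide 3 replicate 1 (log2 -1.16), with adjusted p 0.0032 to 0.286 over 24 alternatives.

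The size of 3 named falls is uncertain. AKR1C1, a hydroxysteroid reductase, was 4.87-fold lower (log2 -2.28 ± 0.49, adjusted p 0.00481), but its near-identical copies AKR1C2 and AKR1C3 were not tested, and reads may be divided among them. SULT1A4 (log2 -1.65 ± 0.50) is a copy of SULT1A3, and its call was lost without KDM1A guide 2 replicate 1 or 2 (log2 -1.63 and -1.51), KDM1A guide 3 replicate 1 (log2 -1.56), SPP1 guide 1 replicate 1 (log2 -1.56), SPP1 guide 2 replicate 1 or 2 (log2 -1.65 and -1.62) or SPP1 guide 3 replicate 2 (log2 -1.55), at adjusted p 0.00489 to 0.334 over the alternatives. PPP4R4 (log2 -2.56 ± 0.77) had between 0.535 and 8.97 CPM within SPP1 knockdown, and its call was lost without KDM1A guide 2 replicate 1 or 2 (log2 -3.06 and -2.50), KDM1A guide 3 replicate 1 or 2 (log2 -2.47 and -2.28), SPP1 guide 1 replicate 1 (log2 -2.33), SPP1 guide 2 replicate 1 or 2 (log2 -2.53 and -2.52) or SPP1 guide 3 replicate 1 (log2 -2.53), at adjusted p 0.00334 to 0.417.

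**Figure D4:**
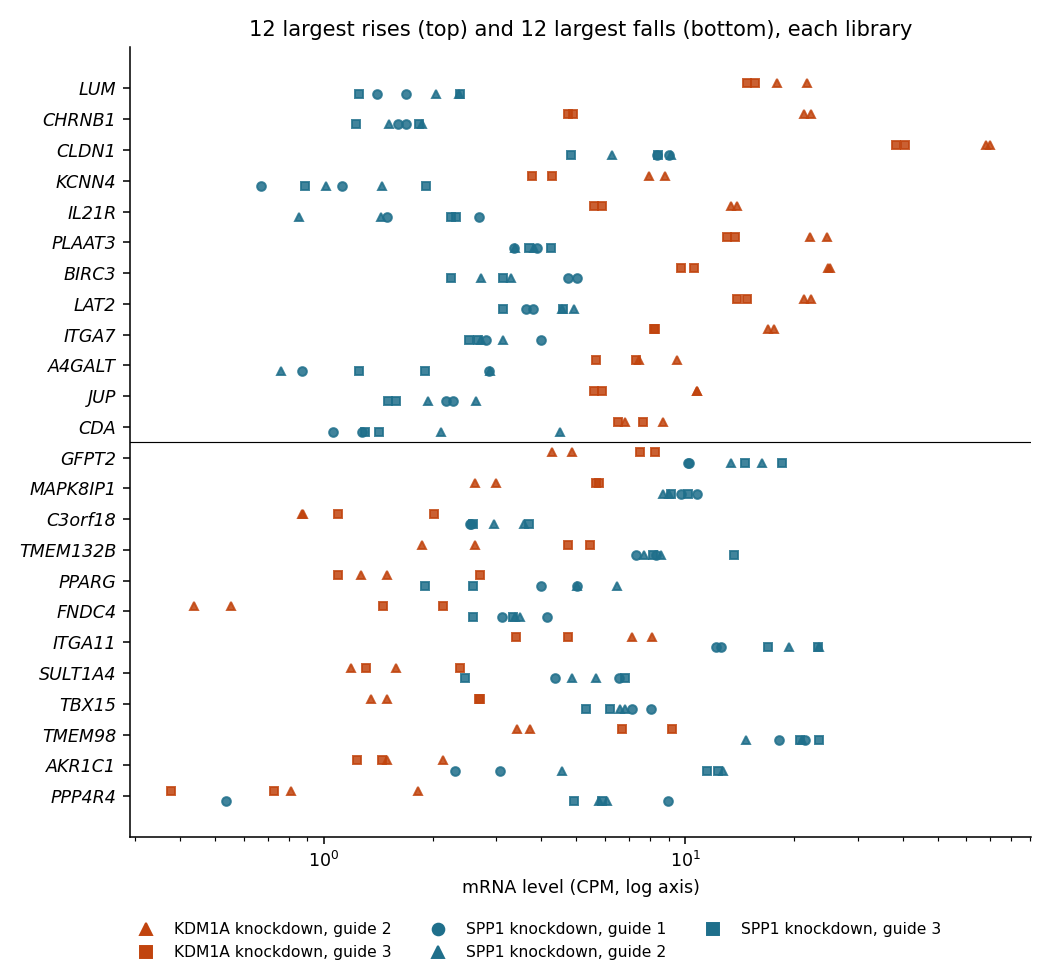
Level of the 12 largest rises (top) and 12 largest falls (bottom) in each library, in CPM on a log axis. Orange marks are KDM1A libraries and blue marks SPP1 libraries, with a shape per guide. The orange and blue marks are separate for all 12 rises, and they overlap for PPP4R4 and PPARG among the falls.

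The other genes were read in 34 lists by role, which hold 700 genes, 581 of them tested. Of those, 93 were higher and 41 lower in KDM1A knockdown. Both targeted genes, KDM1A and SPP1, are counted among them. Each count below stands against 6.90% higher and 5.0% lower over all genes tested, whose median log2 fold change was -0.01. Of the tested list members, 23.1% were called, against 11.9% of all genes tested. Members and lists were chosen with earlier results of these data known, so neither this share nor a count below tests a list. A count of 0 to 2 genes moves with single genes, and leaving out 1 library at a time moved such counts by at most 2, except for the contractile genes. The counts also rest on the guides and the model. Summed over the 34 lists, with a gene of several lists counted in each, there were 94 rises and 43 falls, against 28 and 5 with the libraries of each guide summed, 27 and 11 without KDM1A guide 2, and 153 and 44 without KDM1A guide 3. Beside a list stand its rises and falls with guides summed and without KDM1A guide 2, and under any other model or guide left out where a count moved by 2 or more and by at least 1.5 times.

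**Figure D5:**
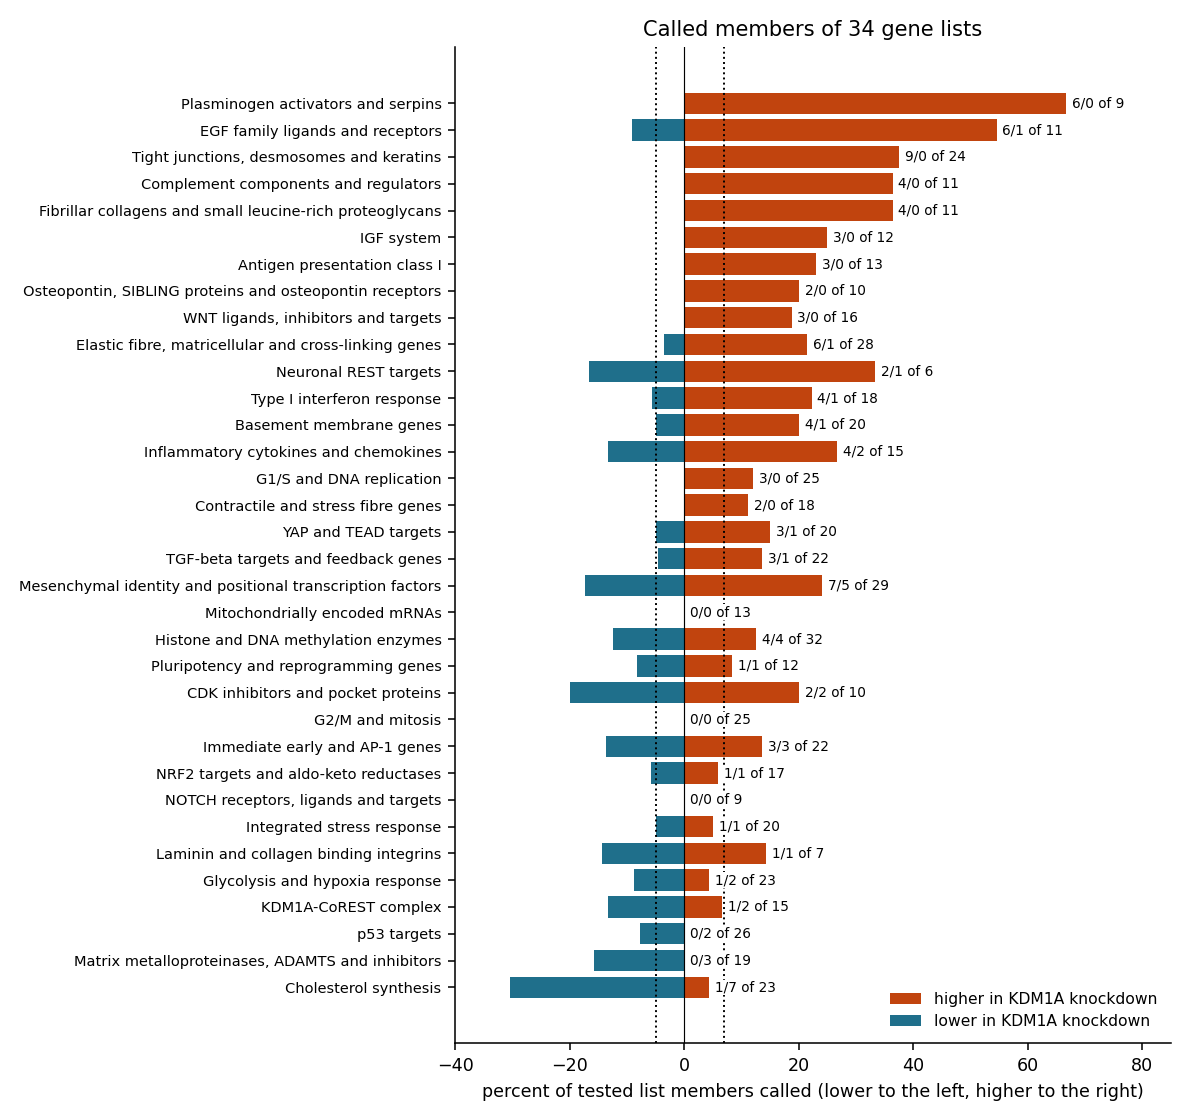
Percent of the tested members of each of 34 lists that were called higher (orange, to the right) or lower (blue, to the left) in KDM1A knockdown. Dotted lines mark 6.90% and 5.0%, the shares over all genes tested, and the text gives higher/lower counts of members tested. Plasminogen activators and serpins have the largest share higher, 6 of 9, and cholesterol synthesis the largest share lower, 7 of 23. With the libraries of each guide summed these were 1 of 9 and 1 of 23. The lists were chosen with earlier results of these data known.

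Fibrillar collagens and small leucine-rich proteoglycans build and space the collagen fibrils of connective tissue. Of 11 members tested, 4 rose and 0 fell, with a median log2 of 0.26. COL3A1, the collagen of elastic tissues and early wounds, had 70.2, 61.9, 28.4 and 28.8 CPM in KDM1A knockdown, against 10.8 to 16.9 CPM (median 14.2) in SPP1 knockdown. It rose 3.38-fold (log2 1.76 ± 0.22, adjusted p 3.33e-05), and was 2.31-fold higher with guide 2 than with guide 3. DCN, which encodes decorin and lies beside LUM (chromosome 12, 91140484 to 91183123 for DCN and 91102629 to 91111831 for LUM), had 23.7, 24.3, 22.8 and 25.9 CPM in KDM1A knockdown, against 4.16 to 12 CPM (median 9.37) in SPP1 knockdown. DCN rose 2.64-fold without overlap (adjusted p 0.00304), with a log2 of guide 2 over guide 3 of -0.02 ± 0.21. COL11A1, a minor fibrillar collagen, rose 1.79-fold (log2 0.84 ± 0.24), but was not called without KDM1A guide 2 replicate 1 or 2 (log2 0.76 and 0.72) or SPP1 guide 3 replicate 1 (log2 0.77), at adjusted p 5.52e-08 to 0.459 over the alternatives. The main dermal collagens COL1A1 (log2 0.26) and COL1A2 (log2 -0.03) were not called. The fibrillar collagen counts were 2 rises and 0 falls with guides summed and 2 and 0 without KDM1A guide 2 (median log2 0.11). They were 7 and 1 with 1 coefficient per guide, and 7 and 0 without KDM1A guide 3.

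Basement membrane genes had 4 rises and 1 fall in 20, with a median log2 of 0.14. LAMA5, the laminin alpha chain of mature basement membranes, had 104, 106, 88.2 and 84.9 CPM in KDM1A knockdown, against 36.9 to 57.7 CPM (median 47.3) in SPP1 knockdown, and was 2.00-fold higher (log2 1.00 ± 0.11, adjusted p 6.04e-06). HSPG2, the heparan sulphate proteoglycan perlecan, had 927, 981, 746 and 690.2 CPM in KDM1A knockdown, against 398 to 601 CPM (median 553) in SPP1 knockdown (log2 0.64 ± 0.10, adjusted p 0.000466). Neither gene overlapped between groups. LAMB2 rose by a smaller step (log2 0.23 ± 0.05, adjusted p 0.00279). LAMA4, a laminin chain of vessels and muscle, fell (log2 -0.51 ± 0.14) without overlap between groups. LAMA4 was not called without KDM1A guide 2 replicate 1 (log2 -0.50) or KDM1A guide 3 replicate 2 (log2 -0.46), at adjusted p 0.00221 to 0.166 over the alternatives. The type IV collagens COL4A1 (log2 0.63) and COL4A2 (log2 0.37) did not pass. The basement membrane counts were 2 rises and 0 falls with guides summed and 1 and 0 without KDM1A guide 2 (median log2 0.00). They were 8 and 1 with 1 coefficient per guide, 2 and 0 with a length offset, and 7 and 0 without KDM1A guide 3.

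Of 28 genes for elastic fibres, matricellular proteins and cross-linking, 6 rose and 1 fell (median log2 0.06). LOXL3, a lysyl oxidase that cross-links collagen and elastin, had 58.3, 64.1, 34.5 and 35.1 CPM in KDM1A knockdown, against 17.4 to 29.3 CPM (median 22.3) in SPP1 knockdown (log2 1.09 ± 0.16, adjusted p 0.000199). FBLN1 (fibulin-1) rose 1.46-fold (adjusted p 0.00121) and FBLN2 (fibulin-2) fell 1.70-fold (adjusted p 0.00577), each without overlap. THBS1, which encodes the matricellular protein thrombospondin-1, had 4159, 4164, 2213 and 2084 CPM in KDM1A knockdown, against 1194 to 2288 CPM (median 1771) in SPP1 knockdown. Its rise (log2 0.81 ± 0.18, adjusted p 0.00734) was that of guide 2, which lay 1.94-fold above guide 3, while guide 3 was within the range of SPP1 knockdown. The elastic fibre counts were 1 rise and 0 falls with guides summed and 1 and 1 without KDM1A guide 2 (median log2 -0.11). They were 4 and 1 with voom and the guide as a random effect, 10 and 5 with 1 coefficient per guide, 11 and 0 without KDM1A guide 3, and 5 and 4 without SPP1 guide 3.

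ELN, which encodes elastin, had 13.9, 15.2, 1.09 and 1.19 CPM in KDM1A knockdown, against 0.409 to 1.00 CPM (median 0.586) in SPP1 knockdown (log2 3.65 ± 0.61, adjusted p 0.000641). Its 2 guides differed 12.6-fold, and its size is uncertain since guide 3 and SPP1 knockdown lay near 1 CPM. MFAP2 (log2 0.38 ± 0.09) and THBS2 (log2 0.34 ± 0.09) complete the rises and are named after their values were seen. THBS2 was not called without KDM1A guide 2 replicate 1 or 2 (log2 0.28 and 0.27), at adjusted p 0.000431 to 0.626, and MFAP2 was not called without KDM1A guide 2 replicate 2 (log2 0.33), at adjusted p 0.000595 to 0.368. The fibronectin gene FN1 (log2 -0.07), LOX (log2 0.03) and POSTN (log2 0.10) were not called.

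The integrin chains that bind laminin and collagen split. ITGA7, which pairs with the beta-1 chain to bind laminin, had 17.7, 16.9, 8.22 and 8.23 CPM in KDM1A knockdown, against 2.52 to 3.99 CPM (median 2.77) in SPP1 knockdown, and rose 4.26-fold (adjusted p 5.75e-06). ITGA11, the collagen-binding chain of fibroblasts, had 7.13, 8.11, 4.73 and 3.39 CPM in KDM1A knockdown, against 12.2 to 23.4 CPM (median 18.2) in SPP1 knockdown, and fell 3.06-fold (adjusted p 8.04e-05). Neither gene overlapped, and both were higher with guide 2 than with guide 3 (adjusted p 0.00203 and 0.0159), so that guide 3 was the lower for ITGA11. The other 5 chains tested, of ITGA1, ITGA2, ITGA3, ITGA6 and ITGA10, had log2 values of -0.15 to 0.17 and were not called. The integrin counts were 1 rise and 1 fall with guides summed and 1 and 1 without KDM1A guide 2 (median log2 0.19).

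Plasminogen activators turn plasminogen into the protease plasmin, and some serpins inhibit them. Of 9 members tested, 6 rose and 0 fell, with a median log2 of 0.36. PLAU, the urokinase activator, had 151, 152, 150.3 and 147 CPM in KDM1A knockdown, against 86.7 to 132 CPM (median 108) in SPP1 knockdown (log2 0.47 ± 0.09, adjusted p 0.00253). SERPINF1, which encodes the anti-angiogenic factor PEDF, had 5.62, 4.99, 3.20 and 4.15 CPM in KDM1A knockdown, against 1.58 to 2.28 CPM (median 1.89) in SPP1 knockdown (log2 1.23 ± 0.16, adjusted p 6.74e-05). SERPINB2, the inhibitor PAI-2, had 40.9, 38.9, 119 and 123 CPM in KDM1A knockdown, against 11.5 to 36.9 CPM (median 21.1) in SPP1 knockdown (log2 1.79 ± 0.42, adjusted p 0.00841). These 3 genes did not overlap between groups, and SERPINB2 was higher with guide 3 than with guide 2 (log2 of guide 2 over guide 3 -1.60 ± 0.31, adjusted p 0.00615). The plasminogen and serpin counts were 1 rise and 0 falls with guides summed and 2 and 0 without KDM1A guide 2 (median log2 0.20). They were 4 and 0 with the 10 libraries alone, with a length offset, without KDM1A guide 3 or without SPP1 guide 3.

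SERPINB8 rose 1.28-fold without overlap (adjusted p 0.00176), and lies on chromosome 18 with SERPINB2. SERPINE2, a serpin of thrombin and urokinase, rose 1.37-fold, but was not called without KDM1A guide 2 replicate 1 or 2 (log2 0.36 and 0.37), at adjusted p 3.16e-07 to 0.599 over the alternatives. PLAUR, the urokinase receptor, rose by 0.21 on the log2 scale and is named after its values were seen; it was not called without KDM1A guide 2 replicate 1 or 2 (log2 0.22 and 0.20), KDM1A guide 3 replicate 2 (log2 0.22), SPP1 guide 2 replicate 1 or 2 (log2 0.19 and 0.21) or SPP1 guide 3 replicate 1 or 2 (log2 0.19 and 0.20), at adjusted p 0.000482 to 0.293.

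Among 19 matrix metalloproteinases, ADAMTS proteases and inhibitors, 0 rose and 3 fell (median log2 -0.01). ADAMTS2, which trims procollagen, had 26.6, 26.9, 24.3 and 24.9 CPM in KDM1A knockdown, against 28.8 to 37.1 CPM (median 33.2) in SPP1 knockdown (log2 -0.37 ± 0.07, adjusted p 0.00225), without overlap. MMP3, the stromelysin that degrades matrix proteoglycans, had 2.61, 2.62, 6.54 and 6.72 CPM in KDM1A knockdown, against 5.65 to 14.5 CPM (median 7.49) in SPP1 knockdown. Its groups overlapped through guide 3, and it was not called without KDM1A guide 2 replicate 1 or 2 (log2 -0.85 and -0.82) or SPP1 guide 1 replicate 1 or 2 (log2 -0.86 and -0.87), at adjusted p 1.68e-06 to 0.459 over the alternatives. TIMP3, an inhibitor bound to matrix, had 0.633, 0.811, 0.145 and 0 CPM in KDM1A knockdown, against 0.255 to 9.07 CPM (median 6.36) in SPP1 knockdown, and is uncertain because SPP1 guide 2 also lay near 0, at 0.255 and 0.506 CPM. MMP1 (log2 -0.24), MMP2 (log2 0.08), MMP14 (log2 -0.05) and TIMP1 (log2 -0.10) were not called. The metalloproteinase counts were 0 rises and 0 falls with guides summed and 0 and 2 without KDM1A guide 2 (median log2 -0.03).

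Tight junction, desmosome and keratin genes, which join and stiffen epithelial cells, had 9 rises and 0 falls in 24, with a median log2 of 0.34. Beside CLDN1, JUP, which links cadherins to the cytoskeleton, had 10.8, 10.8, 5.89 and 5.59 CPM in KDM1A knockdown, against 1.5 to 2.63 CPM (median 2.06) in SPP1 knockdown, and rose 4.07-fold (adjusted p 3.33e-05). PKP2, a desmosomal plakophilin, had 16.2, 12.5, 6.98 and 7.48 CPM in KDM1A knockdown, against 2.17 to 4.93 CPM (median 3.20) in SPP1 knockdown (log2 1.67 ± 0.26, adjusted p 0.000342). PERP, a desmosomal membrane protein, had 111, 114, 98.0 and 105 CPM in KDM1A knockdown, against 69.4 to 80.8 CPM (median 73.3) in SPP1 knockdown (log2 0.53 ± 0.06, adjusted p 1.24e-05). All 3 were without overlap, and for PERP the KDM1A guides were not called different (log2 of guide 2 over guide 3 0.14 ± 0.08). The junction counts were 5 rises and 0 falls with guides summed and 5 and 0 without KDM1A guide 2 (median log2 0.23). They were 6 and 1 with the 10 libraries alone, and 9 and 2 with 1 coefficient per guide.

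KRT80, a keratin of many epithelia, had 38.6, 39.2, 22.9 and 23.2 CPM in KDM1A knockdown, against 14.8 to 19.3 CPM (median 16.0) in SPP1 knockdown, and rose 1.88-fold (adjusted p 0.000272). KRT8, KRT18, KRT7 and OCLN, named after their values were seen, make up the 9. KRT18 rose by 0.35 on the log2 scale (adjusted p 0.00213) and KRT8 by 0.40, and both have processed copies in the genome, so that their counts are uncertain. KRT8 was not called without KDM1A guide 2 replicate 1 or 2 (log2 0.37 and 0.33), at adjusted p 4.56e-05 to 0.38 over the alternatives. OCLN was not called without KDM1A guide 2 replicate 1 (log2 0.85), KDM1A guide 3 replicate 1 (log2 0.89), SPP1 guide 1 replicate 1 (log2 0.91) or SPP1 guide 2 replicate 1 or 2 (log2 0.87 and 0.93), at adjusted p 0.00931 to 0.155, and KRT7 was not called without KDM1A guide 2 replicate 1 or 2 (log2 0.71 and 0.72), SPP1 guide 1 replicate 1 or 2 (log2 0.92 and 0.84), SPP1 guide 2 replicate 1 or 2 (log2 0.85 in each) or SPP1 guide 3 replicate 1 (log2 0.92), at adjusted p 0.00141 to 0.807. The desmosomal DSP (log2 -0.34) and the epithelial cadherin CDH1 (log2 0.28) were not called. Keratinocyte markers summed to 66.5 to 75.5 CPM in KDM1A knockdown and 57.1 to 75.3 CPM in SPP1 knockdown, and 7 of the 11, KRT1 and KRT5 among them, were under 0.5 CPM in every library of both groups.

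Ligands of the EGF family bind the ERBB receptors and drive growth and migration. Of 11 members tested, 6 rose and 1 fell, with a median log2 of 0.48. EREG (epiregulin) had 84.4, 84.2, 102 and 95.8 CPM in KDM1A knockdown, against 30.8 to 55.7 CPM (median 42.2) in SPP1 knockdown, and rose 2.13-fold (adjusted p 5.75e-06). AREG (amphiregulin) had 8.16, 7.48, 6.04 and 6.60 CPM in KDM1A knockdown, against 3.06 to 5.18 CPM (median 4.19) in SPP1 knockdown (log2 0.76 ± 0.15, adjusted p 0.00262). EPGN (epigen) had 12.8, 14.0, 15.6 and 15.3 CPM in KDM1A knockdown, against 5.33 to 10.2 CPM (median 7.78) in SPP1 knockdown (log2 0.85 ± 0.18, adjusted p 0.00404). These 3 ligand genes lie within 1 cluster on chromosome 4, from 74365143 (EREG), 74445134 (AREG) and 74308473 (EPGN). None overlapped between groups, and in none was a difference between the KDM1A guides called. The EGF family counts were 2 rises and 0 falls with guides summed and 3 and 0 without KDM1A guide 2 (median log2 0.27). They were 4 and 1 with a length offset.

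Among the receptor genes, 2 rose and 1 fell. ERBB4 rose 2.86-fold at a low level, averaging 2.44 ± 0.512 CPM in KDM1A knockdown and 0.846 ± 0.149 CPM in SPP1 knockdown (adjusted p 0.000256). ERBB2 had 13.6, 15.2, 20.7 and 21.5 CPM in KDM1A knockdown, against 22.4 to 31.0 CPM (median 29) in SPP1 knockdown, and fell 1.58-fold (adjusted p 0.00123), without overlap. NRG1 (log2 0.48 ± 0.11, adjusted p 0.00613) and ERBB3 (log2 1.11 ± 0.28), named after their values were seen, also rose. ERBB3 was not called without KDM1A guide 2 replicate 1 or 2 (log2 0.89 and 0.95), at adjusted p 0.00025 to 0.563 over the alternatives. EGFR (log2 -0.25, adjusted p 0.0668) and the ligand HBEGF (log2 -0.15) were not called.

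IGF-binding proteins hold insulin-like growth factors outside the cell. The IGF list had 3 rises and 0 falls in 12 (median log2 0.30), and 5 rises without KDM1A guide 3 replicate 2. IGFBP3 had 828, 842, 283 and 276 CPM in KDM1A knockdown, against 104 to 219 CPM (median 168) in SPP1 knockdown, and rose 3.30-fold (adjusted p 0.000368). Guide 2 lay 2.99-fold above guide 3, and the controls, at 302 to 392 CPM, lay above all SPP1 libraries and above guide 3. IGFBP4 rose 1.24-fold without overlap (log2 0.31 ± 0.08), but was not called without KDM1A guide 2 replicate 1 or 2 (log2 0.27 in each), at adjusted p 3.81e-05 to 0.383. IRS2, an adaptor of the insulin and IGF receptors, had 67.0, 73.0, 68.2 and 68.2 CPM in KDM1A knockdown, against 39.1 to 60.2 CPM (median 53.5) in SPP1 knockdown (log2 0.42 ± 0.09, adjusted p 0.00509). The IRS2 groups did not overlap, and the controls, at 76.2 to 85.3 CPM, lay above both knockdowns. The IGF counts were 1 rise and 0 falls with guides summed and 0 and 1 without KDM1A guide 2 (median log2 0.09). They were 6 and 0 with 1 coefficient per guide or without KDM1A guide 3.

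WNT ligands, inhibitors and targets had 3 rises and 0 falls in 16 (median log2 -0.05). WNT16, a ligand of skin and bone, had 27.2, 26.5, 20.1 and 19.7 CPM in KDM1A knockdown, against 6.83 to 10.9 CPM (median 9.25) in SPP1 knockdown, and rose 2.57-fold (adjusted p 2.94e-05). DKK2, a secreted modulator of the WNT co-receptors, had 7.92, 7.86, 6.98 and 6.28 CPM in KDM1A knockdown, against 2.75 to 5.23 CPM (median 3.6) in SPP1 knockdown (log2 0.94 ± 0.17, adjusted p 0.00157). Neither overlapped. WNT5A rose by 0.23 on the log2 scale but was not called without KDM1A guide 2 replicate 1 or 2 (log2 0.20 and 0.22), at adjusted p 0.00433 to 0.328. The WNT feedback gene AXIN2 (log2 -1.0, adjusted p 0.0898) was not called. Of 9 NOTCH receptors, ligands and targets, 0 were called by edgeR and 1 by DESeq2, 4 had an unadjusted p under 0.05, with the smallest p for HES4 (log2 0.65 ± 0.22, adjusted p 0.0603). The NOTCH list had 2 rises without SPP1 guide 2 replicate 2. The WNT counts were 1 rise and 0 falls with guides summed and 1 and 1 without KDM1A guide 2 (median log2 -0.06). They were 3 and 2 with 1 coefficient per guide.

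Complement components and regulators, part of innate defence and also made by fibroblasts, had 4 rises and 0 falls in 11 (median log2 0.06). CLU (clusterin), a secreted chaperone that blocks the terminal complex, had 71.6, 76.8, 42.0 and 49.1 CPM in KDM1A knockdown, against 28.1 to 31.8 CPM (median 29.5) in SPP1 knockdown (log2 1.02 ± 0.13, adjusted p 3.22e-05). The groups did not overlap, and CLU was 1.63-fold higher with guide 2 than with guide 3. C1QTNF5, whose locus overlaps MFRP so that its counts are uncertain, rose 2.30-fold (adjusted p 0.000457). It encodes a C1q-related protein that is not itself a complement component, and it is counted among the rises of this list throughout. CD55, which speeds the decay of convertases, rose 1.32-fold, but was not called without KDM1A guide 2 replicate 1 (log2 0.33), at adjusted p 0.00194 to 0.32. C1R (log2 -0.24) and C1S (log2 -0.30) were not called. The complement counts were 3 rises and 0 falls with guides summed and 3 and 0 without KDM1A guide 2 (median log2 0.01).

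Type I interferon response genes had 4 rises and 1 fall in 18, with a median log2 of -0.02, and 2 rises without KDM1A guide 2 replicate 1. IFI44L, an interferon-induced gene, had 7.36, 7.48, 7.20 and 5.97 CPM in KDM1A knockdown, against 1.5 to 2.97 CPM (median 1.78) in SPP1 knockdown, and rose 3.38-fold (adjusted p 8.43e-05). OAS3, which senses double-stranded RNA, had 8.95, 8.17, 8.07 and 5.97 CPM in KDM1A knockdown, against 2.11 to 5.52 CPM (median 2.24) in SPP1 knockdown (log2 1.44 ± 0.22, adjusted p 0.000311). IFI44, the neighbour of IFI44L on chromosome 1, had 7.05, 5.61, 5.16 and 5.03 CPM in KDM1A knockdown, against 3.43 to 4.33 CPM (median 3.75) in SPP1 knockdown (log2 0.57 ± 0.13). These 3 did not overlap between groups, and for none were the KDM1A guides called different. The interferon counts were 2 rises and 0 falls with guides summed and 2 and 0 without KDM1A guide 2 (median log2 -0.02). They were 2 and 1 with a length offset.

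IFIT1, which binds foreign RNA ends, went the other way, with 1.90, 2.12, 2.62 and 2.70 CPM in KDM1A knockdown against 3.14 to 5.36 CPM (median 3.91) in SPP1 knockdown (log2 -0.79 ± 0.18, adjusted p 0.00756), also without overlap. IFI44 was not called without KDM1A guide 2 replicate 1 (log2 0.46), at adjusted p 0.00339 to 0.268 over the alternatives. USP18, the ISG15 protease, rose by 0.37 on the log2 scale and was not called without KDM1A guide 2 replicate 1 or 2 (log2 0.29 and 0.32), KDM1A guide 3 replicate 2 (log2 0.41), SPP1 guide 1 replicate 1 (log2 0.37), SPP1 guide 2 replicate 1 or 2 (log2 0.34 and 0.31) or SPP1 guide 3 replicate 1 (log2 0.40), at adjusted p 0.00389 to 0.664. The widely used interferon genes ISG15 (log2 -0.27), MX1 (log2 -0.40) and IFIT3 (log2 0.20) were not called.

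Promoters of 4 of the 5 called interferon genes are shown because 3 of them rose and 1 fell while 13 of the 18 tested were not called. The sequences are the 250 bases before each start from RefSeq (GRCh38.p14), written in the direction of the gene, all on the plus strand. Capitals mark GAAANNGAAA, the core of the element that interferon factors bind, or its reverse complement TTTCNNTTTC.
IFI44L (chr1:78620198-78620447): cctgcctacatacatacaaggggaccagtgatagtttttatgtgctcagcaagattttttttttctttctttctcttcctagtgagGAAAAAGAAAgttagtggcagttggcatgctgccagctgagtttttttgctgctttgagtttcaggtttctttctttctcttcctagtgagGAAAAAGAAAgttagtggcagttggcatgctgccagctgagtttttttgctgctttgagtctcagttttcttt
IFI44 (chr1:78649539-78649788): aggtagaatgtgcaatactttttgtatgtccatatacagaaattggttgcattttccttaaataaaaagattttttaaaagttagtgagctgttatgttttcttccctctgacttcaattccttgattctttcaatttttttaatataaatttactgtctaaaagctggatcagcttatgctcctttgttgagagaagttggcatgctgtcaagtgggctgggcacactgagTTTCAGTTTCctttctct
OAS3 (chr12:112938224-112938473): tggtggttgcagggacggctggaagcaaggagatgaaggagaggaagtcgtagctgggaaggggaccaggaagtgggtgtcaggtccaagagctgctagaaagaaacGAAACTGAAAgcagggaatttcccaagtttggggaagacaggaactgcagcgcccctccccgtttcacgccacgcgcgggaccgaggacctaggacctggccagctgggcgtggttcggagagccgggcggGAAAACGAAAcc
IFIT1 (chr10:89392373-89392622): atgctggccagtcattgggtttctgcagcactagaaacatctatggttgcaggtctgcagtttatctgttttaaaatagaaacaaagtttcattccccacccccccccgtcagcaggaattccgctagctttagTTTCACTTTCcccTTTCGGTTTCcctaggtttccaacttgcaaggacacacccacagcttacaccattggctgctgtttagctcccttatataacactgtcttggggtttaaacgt
The motif on either strand is in 4 of these 4 promoters, in 5 of the 9 promoters of tested interferon genes that were not called, and in 3.02% of 35116 RefSeq promoters. IFIT1, which fell, holds it 2 times, as do IFI44L and OAS3, which rose, and IFI44 holds it 1 time. A match says only that these letters are in the window.

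Class I antigen presentation genes had 3 rises and 0 falls in 13 (median log2 0.20), and 0 without KDM1A guide 2 replicate 1 or replicate 2. B2M, beta-2 microglobulin, had 448, 446, 381 and 400.1 CPM in KDM1A knockdown, against 317 to 402 CPM (median 327) in SPP1 knockdown (log2 0.29 ± 0.07). ERAP1 (log2 0.34 ± 0.08) and ERAP2 (log2 0.31 ± 0.08), neighbours on chromosome 5 that trim peptides, also rose. B2M was not called without KDM1A guide 2 replicate 1 or 2 (log2 0.26 and 0.27), at adjusted p 0.00109 to 0.304 over the alternatives. ERAP1 was not called without KDM1A guide 2 replicate 1 or 2 (log2 0.27 and 0.31), at adjusted p 0.000524 to 0.388, and ERAP2 was not called without KDM1A guide 2 replicate 1 or 2 (log2 0.31 in each), at adjusted p 0.00428 to 0.196. Genes of the major histocompatibility region, whose counts on alternate haplotypes are uncertain, were not called. The antigen presentation counts were 0 rises and 0 falls with guides summed and 0 and 0 without KDM1A guide 2 (median log2 0.20). They were 1 and 0 with voom and the guide as a random effect or with a length offset, and 5 and 0 with 1 coefficient per guide.

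Among 15 genes listed as cytokines and chemokines 4 rose and 2 fell (median log2 0.01). The list also holds PTGES, which encodes a prostaglandin synthase and not a cytokine, and PTGES is counted among the rises. IL11, a cytokine that activates fibroblasts, had 32.1, 33.7, 47.3 and 46.6 CPM in KDM1A knockdown, against 55.6 to 85.9 CPM (median 64.3) in SPP1 knockdown, and fell 1.66-fold without overlap (adjusted p 0.000457). IL1A rose 2.75-fold at a low level, averaging 0.803 ± 0.170 CPM in KDM1A knockdown and 0.284 ± 0.108 CPM in SPP1 knockdown (adjusted p 0.00938). The chemokine CXCL12 rose by 0.27 on the log2 scale and was not called without KDM1A guide 2 replicate 1 or 2 (log2 0.23 and 0.24) or SPP1 guide 2 replicate 2 (log2 0.23), at adjusted p 0.00512 to 0.504. CSF1, the macrophage growth factor, fell by 0.40 and was not called without KDM1A guide 2 replicate 2 (log2 -0.43), KDM1A guide 3 replicate 1 or 2 (log2 -0.35 in each), SPP1 guide 2 replicate 2 (log2 -0.34) or SPP1 guide 3 replicate 1 (log2 -0.35), at adjusted p 0.00588 to 0.252. PTGES and, named after its values were seen, TNFSF9 also rose, at under 3 CPM in every library of both groups. PTGES was not called without KDM1A guide 2 replicate 1 or 2 (log2 1.05 and 0.87), KDM1A guide 3 replicate 1 or 2 (log2 0.93 and 1.01), SPP1 guide 1 replicate 2 (log2 0.87), SPP1 guide 2 replicate 2 (log2 0.90) or SPP1 guide 3 replicate 1 (log2 0.97), at adjusted p 0.0205 to 0.259, and TNFSF9 was not called without KDM1A guide 2 replicate 1 or 2 (log2 1.00 and 1.28), KDM1A guide 3 replicate 1 (log2 1.30), SPP1 guide 1 replicate 1 (log2 1.20), SPP1 guide 2 replicate 1 or 2 (log2 1.11 and 1.18) or SPP1 guide 3 replicate 2 (log2 1.10), at adjusted p 0.00926 to 0.426. The list had 1 rise without KDM1A guide 2 replicate 1 or replicate 2, and 2 without KDM1A guide 3 replicate 1 or without SPP1 guide 2 replicate 2. IL6 (log2 0.53) and CXCL8 (log2 -0.27) were not called. The cytokine counts were 0 rises and 1 fall with guides summed and 0 and 1 without KDM1A guide 2 (median log2 0.09). They were 1 and 1 with the 10 libraries alone, with voom and the guide as a random effect or with a length offset, 5 and 4 with 1 coefficient per guide, 1 and 2 without SPP1 guide 1, and 2 and 1 without SPP1 guide 2.

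Contractile and stress fibre genes mark the myofibroblast, the contractile form of a fibroblast. Of 18 tested, 2 rose and 0 fell, while 16 lay above 0 (median log2 0.19). ACTA2, smooth muscle actin, had 293, 307, 72.7 and 68.5 CPM in KDM1A knockdown, against 31.5 to 92.7 CPM (median 54.2) in SPP1 knockdown (log2 1.63 ± 0.38, adjusted p 0.00918). Guide 2 lay 4.26-fold above guide 3 (adjusted p 4.22e-06), and guide 3 lay within the range of SPP1 knockdown. ACTA2 was not called without KDM1A guide 2 replicate 1 or 2 (log2 1.32 and 1.27), at adjusted p 9.09e-07 to 0.813 over the alternatives. CNN2 (calponin-2) rose by 0.32 and was not called without KDM1A guide 2 replicate 1 or 2 (log2 0.26 and 0.25), SPP1 guide 2 replicate 1 or 2 (log2 0.29 and 0.31) or SPP1 guide 3 replicate 2 (log2 0.29), at adjusted p 0.000466 to 0.698. The list had 7 rises without KDM1A guide 3 replicate 1, 8 without its replicate 2, but 0 without KDM1A guide 2 replicate 1 or replicate 2, and 1 without SPP1 guide 2 replicate 1 or 2 or SPP1 guide 3 replicate 2. TAGLN (log2 0.17), MYL9 (log2 0.43) and TPM1 (log2 0.33) were not called. The contractile counts were 0 rises and 0 falls with guides summed and 0 and 0 without KDM1A guide 2 (median log2 -0.03). They were 4 and 0 with no filter, 0 and 0 with voom and the guide as a random effect, 12 and 1 with 1 coefficient per guide, 12 and 0 without KDM1A guide 3, and 5 and 1 without SPP1 guide 1.

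The 9 markers of smooth muscle and pericytes, the cells that share this contractile machinery, summed to 643 to 1076 CPM in KDM1A knockdown, 521 to 590 CPM in SPP1 knockdown and 609 to 749 CPM in the controls. DES, the muscle filament desmin, was under 0.5 CPM in each of these libraries, as was MYH11, smooth muscle myosin, in SPP1 knockdown. RGS5, a pericyte marker, had 65.6, 62.9, 48.2 and 49.0 CPM in KDM1A knockdown, against 12.2 to 24.4 CPM (median 19.9) in SPP1 knockdown (log2 1.52 ± 0.23, adjusted p 0.000272), without overlap. CSPG4 (log2 0.54 ± 0.09, adjusted p 0.000544) and MCAM (log2 0.58 ± 0.12, adjusted p 0.00488) rose too. RGS5, CSPG4 and MCAM are named after their values were seen. Of the 7 markers tested, 3 were called higher, 0 lower and 4 were not called, with 6 above 0 and 1 below. Over all genes tested, 6.90% were called higher. CSPG4 and MCAM were not called without KDM1A guide 2, nor MCAM with the libraries of each guide summed. The part of these markers in the contractile counts was not tested.

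Targets of TGF-beta had 3 rises and 1 fall in 22 (median log2 0.20). SMAD7, which limits TGF-beta signalling, NOG (noggin), which binds BMPs, and GREM1 (gremlin-1), another BMP antagonist, rose by 0.56, 0.71 and 0.34 on the log2 scale. SMAD7 had 97.6, 92.6, 59.3 and 57.7 CPM in KDM1A knockdown, against 41.1 to 59.5 CPM (median 52.3) in SPP1 knockdown and 84.1 to 92.2 CPM in the controls. Each was higher with guide 2 than with guide 3 (adjusted p 7.31e-05, 0.00674 and 0.0373). PMEPA1, a feedback inhibitor, had 3.09, 3.93, 3.35 and 3.08 CPM in KDM1A knockdown, against 4.23 to 9.33 CPM (median 6.82) in SPP1 knockdown (log2 -0.96 ± 0.27), without overlap. The TGF-beta counts were 0 rises and 0 falls with guides summed and 0 and 1 without KDM1A guide 2 (median log2 0.08). They were 1 and 1 with the 10 libraries alone, 5 and 2 with DESeq2 or without SPP1 guide 1, 3 and 3 with no filter, 1 and 0 with voom and the guide as a random effect, 11 and 3 with 1 coefficient per guide, 6 and 1 without KDM1A guide 3, 0 and 0 without SPP1 guide 2, and 6 and 2 without SPP1 guide 3.

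All 4 calls were lost when single libraries were left out. SMAD7 was not called without KDM1A guide 2 replicate 1 or 2 (log2 0.43 and 0.46) or SPP1 guide 2 replicate 1 or 2 (log2 0.55 and 0.50), at adjusted p 5.22e-06 to 0.709 over the alternatives. NOG was not called without KDM1A guide 2 replicate 1 or 2 (log2 0.57 and 0.61), at adjusted p 8.51e-05 to 0.535. GREM1 was not called without KDM1A guide 2 replicate 1 or 2 (log2 0.30 and 0.23), SPP1 guide 2 replicate 1 (log2 0.33) or SPP1 guide 3 replicate 2 (log2 0.30), at adjusted p 0.000415 to 0.697, and PMEPA1 was not called without KDM1A guide 2 replicate 1 or 2 (log2 -0.92 and -1.04) or KDM1A guide 3 replicate 2 (log2 -0.91), at adjusted p 0.00245 to 0.182. The list had 0 rises without either KDM1A guide 2 library, 1 without SPP1 guide 2 replicate 1, and 5 without KDM1A guide 3 replicate 2, SPP1 guide 1 replicate 2 or SPP1 guide 3 replicate 1. TGFBI (log2 -0.45, adjusted p 0.0617) was not called.

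Targets of YAP and TEAD, which respond to tension and cell spreading, had 3 rises and 1 fall in 20 (median log2 0.09). ANKRD1, a cardiac and muscle stretch-response gene, had 266, 264, 95.1 and 97.3 CPM in KDM1A knockdown, against 35.7 to 85.5 CPM (median 57.4) in SPP1 knockdown, and rose 3.01-fold (adjusted p 0.000899). Guide 2 lay 2.75-fold above guide 3, and the controls, at 126 to 146 CPM, lay above all SPP1 libraries and above guide 3. GADD45B had 50.04, 48.2, 21.6 and 24.8 CPM in KDM1A knockdown, against 20.3 to 25.5 CPM (median 24.2) in SPP1 knockdown, so that its rise (log2 0.63 ± 0.18) was that of guide 2 alone. GADD45B was not called without KDM1A guide 2 replicate 1 or 2 (log2 0.44 and 0.45), SPP1 guide 2 replicate 1 (log2 0.60) or SPP1 guide 3 replicate 1 (log2 0.59), at adjusted p 3.5e-06 to 0.991. FJX1 rose by 0.27 and was not called without KDM1A guide 2 replicate 1 or 2 (log2 0.24 and 0.23) or SPP1 guide 2 replicate 2 (log2 0.26), at adjusted p 0.00593 to 0.432, and AMOTL1 fell by 0.22 and was not called without KDM1A guide 2 replicate 1 or 2 (log2 -0.17 and -0.20), at adjusted p 0.00295 to 0.457. The list had 1 rise without either KDM1A guide 2 library. The leading targets CCN1 (log2 0.07) and CCN2 (log2 0.20) were not called. The YAP and TEAD counts were 0 rises and 0 falls with guides summed and 0 and 0 without KDM1A guide 2 (median log2 0.06). They were 5 and 1 with DESeq2, 1 and 0 with voom and the guide as a random effect or without SPP1 guide 2, and 6 and 1 with 1 coefficient per guide or without KDM1A guide 3.

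Transcription factors of mesenchymal identity and position in the body had 7 rises and 5 falls in 29 (median log2 -0.08). TBX15, a T-box factor of skin and skeletal patterning, had 1.35, 1.5, 2.69 and 2.70 CPM in KDM1A knockdown, against 5.33 to 8.03 CPM (median 6.69) in SPP1 knockdown, and fell 3.23-fold (log2 -1.69 ± 0.17, adjusted p 4.93e-06). SNAI1, a driver of epithelial-mesenchymal transition, had 11.7, 13.5, 6.40 and 6.91 CPM in KDM1A knockdown, against 2.24 to 4.81 CPM (median 3.26) in SPP1 knockdown, and rose 2.85-fold (adjusted p 0.000362). PRRX2, a homeobox factor of mesenchyme, rose 4.33-fold, averaging 2.26 ± 1.33 CPM in KDM1A knockdown and 0.502 ± 0.223 CPM in SPP1 knockdown (adjusted p 0.00212). None of these overlapped. The transcription factor counts were 2 rises and 1 fall with guides summed and 1 and 1 without KDM1A guide 2 (median log2 0.15). They were 6 and 3 with the 10 libraries alone, 5 and 2 with voom and the guide as a random effect, and 8 and 9 with 1 coefficient per guide.

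FOXC2 and MEOX2, factors of vessels and somites, rose by 0.36 and 0.64 on the log2 scale (adjusted p 0.000665 and 0.0022). OSR1 also rose (log2 0.45 ± 0.11) and PITX1, a factor of hindlimb identity, fell (log2 -0.49 ± 0.10, adjusted p 0.00238), both named after their values were seen. The 5 remaining calls, named likewise, each depended on single libraries. RUNX1 rose (log2 0.24 ± 0.07) and was not called without KDM1A guide 2 replicate 1 or 2 (log2 0.25 in each) or KDM1A guide 3 replicate 1 (log2 0.22), at adjusted p 0.00878 to 0.217. HIC1 rose (log2 0.25 ± 0.07) and was not called without KDM1A guide 2 replicate 1 or 2 (log2 0.22 and 0.25), SPP1 guide 1 replicate 2 (log2 0.23) or SPP1 guide 3 replicate 1 (log2 0.21), at adjusted p 0.0113 to 0.341. FOXC1 fell (log2 -0.40 ± 0.10) and was not called without KDM1A guide 2 replicate 1 (log2 -0.35), at adjusted p 0.00223 to 0.19. TWIST2 fell (log2 -0.33 ± 0.10) and was not called without KDM1A guide 2 replicate 1 or 2 (log2 -0.26 and -0.31), SPP1 guide 2 replicate 1 or 2 (log2 -0.31 and -0.30) or SPP1 guide 3 replicate 2 (log2 -0.29), at adjusted p 0.00154 to 0.486. FOXD1 fell (log2 -0.27 ± 0.08) and was not called without KDM1A guide 2 replicate 1 or 2 (log2 -0.26 and -0.27), KDM1A guide 3 replicate 1 or 2 (log2 -0.26 and -0.27), SPP1 guide 1 replicate 1 (log2 -0.23) or SPP1 guide 3 replicate 2 (log2 -0.23), at adjusted p 0.00593 to 0.238. The list had 2 falls without KDM1A guide 2 replicate 1 and 3 without its replicate 2. TWIST1 (log2 -0.08), ZEB1 (log2 -0.14) and PRRX1 (log2 -0.13) were not called.

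Cholesterol synthesis genes, which are switched together by SREBP2, had 1 rise and 7 falls in 23 (median log2 -0.16). TM7SF2, a sterol reductase, was the gene that rose, with 8.08, 9.48, 4.15 and 4.52 CPM in KDM1A knockdown against 1.54 to 3.00 CPM (median 1.93) in SPP1 knockdown (log2 1.65 ± 0.23, adjusted p 0.000127). IDI1, an isomerase of the isoprenoid steps, fell by 0.26 on the log2 scale without overlap, and was not called without KDM1A guide 2 replicate 2 (log2 -0.23), at adjusted p 0.000627 to 0.184. The cholesterol counts were 1 rise and 1 fall with guides summed and 1 and 1 without KDM1A guide 2 (median log2 -0.17). They were 1 and 1 with the 10 libraries alone, 1 and 2 with voom and the guide as a random effect or with a length offset, 2 and 11 with 1 coefficient per guide, 3 and 4 without KDM1A guide 3, 1 and 4 without SPP1 guide 2, and 4 and 3 without SPP1 guide 3 (median log2 -0.05).

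Further falls were those of HMGCS1 (log2 -0.32 ± 0.09), MVD (log2 -0.32 ± 0.09), NSDHL (log2 -0.26 ± 0.07), LSS (log2 -0.20 ± 0.06) and CYP51A1 (log2 -0.18 ± 0.05), of which only LSS overlapped between groups. MVD, NSDHL and CYP51A1 are named after their values were seen. None of the 5 was called without KDM1A guide 2 replicate 1 or replicate 2, nor LSS, MVD, NSDHL and CYP51A1 without SPP1 guide 3 replicate 1. MVD was also lost without SPP1 guide 3 replicate 2, NSDHL without KDM1A guide 3 replicate 2, and CYP51A1 without KDM1A guide 3 replicate 1 or SPP1 guide 2 replicate 1. Their log2 values stayed between -0.30 and -0.14 in these fits, and their highest adjusted p over the alternatives was 0.327 (HMGCS1), 0.328 (MVD), 0.336 (NSDHL), 0.365 (LSS) and 0.296 (CYP51A1). The list had 2 falls without KDM1A guide 2 replicate 1, 1 without its replicate 2, 3 without SPP1 guide 3 replicate 1, and 3 rises without SPP1 guide 3 replicate 2, against 2 without KDM1A guide 3 replicate 2 or SPP1 guide 3 replicate 1. SREBF2 itself (log2 -0.17) was not called.

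Glycolysis and hypoxia genes had 1 rise and 2 falls in 23 (median log2 -0.10). SLC2A1, the glucose transporter GLUT1, had 363, 364, 249 and 246 CPM in KDM1A knockdown, against 189 to 231 CPM (median 218) in SPP1 knockdown (log2 0.52 ± 0.10, adjusted p 0.00149). VEGFA, the main angiogenic factor, had 26.3, 25.8, 26.3 and 31.6 CPM in KDM1A knockdown, against 32.3 to 44.7 CPM (median 43.5) in SPP1 knockdown, and fell 1.46-fold (adjusted p 0.00632). CA12, a hypoxia-induced carbonic anhydrase, fell 1.54-fold (adjusted p 0.00215). All 3 were without overlap, and SLC2A1 was 1.47-fold higher with guide 2 than with guide 3. Among 17 NRF2 targets and aldo-keto reductases only SRXN1 rose (log2 0.27 ± 0.06, adjusted p 0.00652) and only AKR1C1 fell, and the list had 3 rises without SPP1 guide 3 replicate 1 and 2 without KDM1A guide 3 replicate 1 or SPP1 guide 3 replicate 2. NQO1 (log2 0.02) and HMOX1 (log2 0.37) were not called. Of 13 mitochondrially encoded mRNAs edgeR and DESeq2 called 0 and 0 had an unadjusted p under 0.05, with log2 values of -0.03 to 0.16. The glycolysis and hypoxia counts were 0 rises and 0 falls with guides summed and 0 and 0 without KDM1A guide 2 (median log2 -0.06). They were 3 and 6 with 1 coefficient per guide, and 3 and 5 without KDM1A guide 3. The NRF2 counts were 0 rises and 0 falls with guides summed and 0 and 0 without KDM1A guide 2 (median log2 -0.03). They were 4 and 1 with 1 coefficient per guide.

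Of 25 G1/S and replication genes 3 rose and 0 fell, 23 lay above 0, and the median log2 was 0.12. E2F2, a factor of S-phase entry, had 6.49, 7.73, 4.36 and 4.02 CPM in KDM1A knockdown, against 2.38 to 3.34 CPM (median 3.03) in SPP1 knockdown (log2 0.95 ± 0.19, adjusted p 0.0022). The licensing factors CDT1 and CDC6 rose by 0.30 and 0.31 on the log2 scale. CDT1 was not called without KDM1A guide 2 replicate 2 (log2 0.23), at adjusted p 0.000631 to 0.33, and CDC6 was not called without KDM1A guide 2 replicate 1 or 2 (log2 0.24 and 0.27), at adjusted p 0.000136 to 0.525. The list had 1 rise without KDM1A guide 2 replicate 2, 6 without either KDM1A guide 3 library, and 9 without SPP1 guide 3 replicate 2. Of 25 G2/M genes edgeR called 0 and DESeq2 2, 3 had an unadjusted p under 0.05, with 22 above 0 and a median log2 of 0.08, but 1 rose without KDM1A guide 3 replicate 1, SPP1 guide 1 replicate 2, SPP1 guide 2 replicate 1 or SPP1 guide 3 replicate 2, and 2 without KDM1A guide 3 replicate 2. The G2/M list had 6 rises without KDM1A guide 3, 3 with 1 coefficient per guide and 1 without SPP1 guide 3. KIF11, a spindle motor, had the smallest p (log2 0.17 ± 0.06, adjusted p 0.0567). The proliferation marker MKI67 (log2 0.19, adjusted p 0.0735) was not called. The G1/S counts were 0 rises and 0 falls with guides summed and 0 and 0 without KDM1A guide 2 (median log2 0.03). They were 6 and 0 with DESeq2, 10 and 0 with 1 coefficient per guide, 13 and 0 without KDM1A guide 3, and 8 and 0 without SPP1 guide 3.

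CDK inhibitors and pocket proteins restrain the cell cycle, and 2 of 10 rose and 2 fell (median log2 -0.01). RBL1 (p107) had 51.8, 54.9, 49.4 and 47.2 CPM in KDM1A knockdown, against 42.3 to 45.2 CPM (median 43.4) in SPP1 knockdown (log2 0.22 ± 0.05, adjusted p 0.00452). CDKN2B, the inhibitor p15, had 3.01, 4.18, 4.87 and 4.77 CPM in KDM1A knockdown, against 5.59 to 6.41 CPM (median 6.05) in SPP1 knockdown (log2 -0.51 ± 0.12, adjusted p 0.0103). Both were without overlap. RB1 rose by 0.23 and was not called without KDM1A guide 2 replicate 1 or 2 (log2 0.21 and 0.22), KDM1A guide 3 replicate 2 (log2 0.23) or SPP1 guide 3 replicate 1 (log2 0.22), at adjusted p 0.00586 to 0.308, and RBL2 (p130) fell by 0.28 and was not called without KDM1A guide 2 replicate 2 (log2 -0.23), at adjusted p 0.00249 to 0.292. CDKN1A (log2 -0.01) and CDKN2A (log2 -0.26) were not called. The CDK inhibitor counts were 0 rises and 0 falls with guides summed and 0 and 0 without KDM1A guide 2 (median log2 -0.07). They were 2 and 0 with a length offset.

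Of 26 p53 targets 0 rose and 2 fell, and of 20 genes of the integrated stress response 1 rose and 1 fell (median log2 -0.06 for each list). SESN2, which restrains mTORC1 and is in both lists, fell by 0.40 on the log2 scale, and the DNA repair gene XPC by 0.29. SESN2 was not called without KDM1A guide 2 replicate 1 or 2 (log2 -0.36 and -0.41), at adjusted p 0.00569 to 0.243, and XPC was not called without KDM1A guide 2 replicate 1 or 2 (log2 -0.26 and -0.29), at adjusted p 0.000222 to 0.247. The p53 list had 0 falls without either KDM1A guide 2 library. STC2, a stress-induced secreted glycoprotein, had 1487, 1540.5, 1141 and 1159 CPM in KDM1A knockdown, against 936 to 1058 CPM (median 998) in SPP1 knockdown, and rose 1.34-fold without overlap (adjusted p 0.000748). MDM2 (log2 0.07), GDF15 (log2 0.10), ATF4 (log2 -0.09) and DDIT3 (log2 -0.27) were not called. The p53 counts were 0 rises and 0 falls with guides summed and 0 and 0 without KDM1A guide 2 (median log2 -0.05). They were 0 and 0 with a length offset. The stress response counts were 0 rises and 0 falls with guides summed and 0 and 0 without KDM1A guide 2 (median log2 -0.13). They were 3 and 1 with DESeq2, 5 and 4 with 1 coefficient per guide, 3 and 0 without KDM1A guide 3, and 2 and 3 without SPP1 guide 1.

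Immediate early genes had 3 rises and 3 falls in 22 (median log2 -0.08). KLF2, induced in vessels by flow, had 123, 127, 87.4 and 98.0 CPM in KDM1A knockdown, against 68.8 to 80.9 CPM (median 72.4) in SPP1 knockdown (log2 0.56 ± 0.08, adjusted p 0.000168). IER2 had 159, 159, 119.9 and 129.8 CPM in KDM1A knockdown, against 76.3 to 117 CPM (median 106) in SPP1 knockdown (log2 0.45 ± 0.10, adjusted p 0.00595). Both were without overlap. FOSL1, an AP-1 subunit, rose by 0.19 and was not called without KDM1A guide 2 replicate 1 or 2 (log2 0.18 and 0.16) or SPP1 guide 2 replicate 2 (log2 0.17), at adjusted p 0.0023 to 0.385. NR4A3 fell by 0.98 and was not called without KDM1A guide 2 replicate 1 or 2 (log2 -1.06 and -0.82), KDM1A guide 3 replicate 1 (log2 -0.88), SPP1 guide 1 replicate 1 or 2 (log2 -0.87 and -0.96) or SPP1 guide 3 replicate 1 (log2 -0.97), at adjusted p 0.0287 to 0.308. KLF6, named after its values were seen, fell by 0.23 and was not called without KDM1A guide 2 replicate 1 or 2 (log2 -0.17 and -0.18), SPP1 guide 2 replicate 1 or 2 (log2 -0.23 and -0.18) or SPP1 guide 3 replicate 1 (log2 -0.22), at adjusted p 0.00177 to 0.657. The list had 0 falls without either KDM1A guide 2 library or SPP1 guide 3 replicate 1, and 1 without either SPP1 guide 1 library or SPP1 guide 2 replicate 2. The immediate early counts were 1 rise and 0 falls with guides summed and 1 and 0 without KDM1A guide 2 (median log2 -0.02). They were 3 and 1 with the 10 libraries alone or with no filter, 2 and 0 with voom and the guide as a random effect, 6 and 7 with 1 coefficient per guide, 2 and 1 with a length offset, 5 and 4 without KDM1A guide 3, 4 and 1 without SPP1 guide 1, and 4 and 0 without SPP1 guide 3.

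Pluripotency and reprogramming genes, which the series is about, had 1 rise and 1 fall in 12 (median log2 -0.01). KLF4, one of the reprogramming factors, had 5.62, 5.55, 8.87 and 7.22 CPM in KDM1A knockdown, against 6.20 to 12.8 CPM (median 10.2) in SPP1 knockdown (log2 -0.54 ± 0.17, adjusted p 0.0428). Its groups overlapped, and it was not called without KDM1A guide 2 replicate 1 or 2 (log2 -0.46 and -0.45), KDM1A guide 3 replicate 2 (log2 -0.57), SPP1 guide 1 replicate 1 or 2 (log2 -0.45 and -0.55), SPP1 guide 2 replicate 2 (log2 -0.52) or SPP1 guide 3 replicate 1 (log2 -0.49), at adjusted p 0.00889 to 0.535 over the alternatives. DNMT3B, a de novo DNA methyltransferase, had 5.46, 4.93, 5.75 and 4.33 CPM in KDM1A knockdown, against 3.08 to 4.08 CPM (median 3.59) in SPP1 knockdown, and rose 1.45-fold without overlap (adjusted p 0.0105). POU5F1 (log2 -0.20), SOX2 (log2 0.02), MYC (log2 -0.15), SALL4 (log2 -0.01) and TERT (log2 -0.17) were not called. The cells carry a telomerase transgene (hTERT), and its part in the TERT counts was not tested. The pluripotency counts were 0 rises and 0 falls with guides summed and 0 and 0 without KDM1A guide 2 (median log2 0.02).

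Histone and DNA methylation enzymes had 4 rises and 4 falls in 32 (median log2 -0.07). NSD2, which methylates histone H3 at lysine 36, had 359, 359, 327 and 306 CPM in KDM1A knockdown, against 276 to 297 CPM (median 282) in SPP1 knockdown (log2 0.25 ± 0.05, adjusted p 0.00116), without overlap. EZH1, a Polycomb methyltransferase, fell (log2 -0.28 ± 0.07) and was not called without KDM1A guide 2 replicate 1 (log2 -0.22), at adjusted p 0.0032 to 0.296. The demethylase KDM5B fell by 0.22 and was not called without KDM1A guide 2 replicate 1 or 2 (log2 -0.22 and -0.18), at adjusted p 0.00329 to 0.542. DNMT1 rose by 0.16 and was not called without KDM1A guide 2 replicate 1 or 2 (log2 0.15 and 0.13), SPP1 guide 1 replicate 2 (log2 0.16), SPP1 guide 2 replicate 1 (log2 0.16) or SPP1 guide 3 replicate 2 (log2 0.15), at adjusted p 0.00265 to 0.594. The histone demethylase KDM7A (log2 -0.59 ± 0.18) and the methyltransferase KMT2A (log2 -0.26 ± 0.08) fell and the DNA demethylating enzyme TET3 rose (log2 0.34 ± 0.11), all named after their values were seen. KDM7A was not called without KDM1A guide 2 replicate 1 or 2 (log2 -0.49 and -0.53), KDM1A guide 3 replicate 1 (log2 -0.62), SPP1 guide 1 replicate 2 (log2 -0.58), SPP1 guide 2 replicate 2 (log2 -0.58) or SPP1 guide 3 replicate 2 (log2 -0.56), at adjusted p 0.00143 to 0.466. KMT2A was not called without KDM1A guide 2 replicate 1 or 2 (log2 -0.24 and -0.22), KDM1A guide 3 replicate 2 (log2 -0.24), SPP1 guide 1 replicate 2 (log2 -0.26) or SPP1 guide 2 replicate 1 or 2 (log2 -0.21 and -0.22), at adjusted p 0.0063 to 0.469. TET3 was not called without KDM1A guide 2 replicate 1 or 2 (log2 0.30 and 0.33), KDM1A guide 3 replicate 1 or 2 (log2 0.38 and 0.37), SPP1 guide 2 replicate 1 or 2 (log2 0.36 and 0.34) or SPP1 guide 3 replicate 1 (log2 0.36), at adjusted p 0.0233 to 0.438. The list had 0 falls without KDM1A guide 2 replicate 1, 1 without its replicate 2, and 2 without SPP1 guide 1 replicate 2 or SPP1 guide 2 replicate 2. It had 2 rises without either KDM1A guide 2 library or without SPP1 guide 2 replicate 1. The methylation enzyme counts were 0 rises and 0 falls with guides summed and 0 and 0 without KDM1A guide 2 (median log2 -0.04). They were 2 and 2 with the 10 libraries alone, 2 and 4 with no filter, 2 and 1 with voom and the guide as a random effect, 4 and 6 with 1 coefficient per guide, 3 and 0 with a length offset, 6 and 4 without KDM1A guide 3, 3 and 2 without SPP1 guide 1, 2 and 0 without SPP1 guide 2, and 2 and 5 without SPP1 guide 3.

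Among 15 members of the KDM1A-CoREST complex, KDM1A fell and only 2 others were called. GSE1, a scaffold found with CoREST, had 60.2, 60.6, 51.8 and 48.9 CPM in KDM1A knockdown, against 40.0 to 48.8 CPM (median 42.2) in SPP1 knockdown, and rose 1.26-fold without overlap (adjusted p 0.00474). ZMYM2, a zinc finger partner, fell by 0.26 and was not called without KDM1A guide 2 replicate 2 (log2 -0.23), KDM1A guide 3 replicate 2 (log2 -0.25) or SPP1 guide 2 replicate 1 (log2 -0.22), at adjusted p 0.00517 to 0.226. The scaffolds RCOR1 (log2 0.08) and RCOR3 (log2 -0.07), the deacetylases HDAC1 (log2 0.01) and HDAC2 (log2 -0.09), REST (log2 0.00) and the paralog KDM1B (log2 -0.02) were not called. The CoREST counts were 0 rises and 1 fall with guides summed and 0 and 1 without KDM1A guide 2 (median log2 -0.02). In both settings the fall was the targeted gene KDM1A itself.

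Of 19 neuronal genes that REST can repress, 6 were tested and 13 were too low to test. SCN2A, a neuronal sodium channel, had 9.90, 9.86, 9.60 and 9.05 CPM in KDM1A knockdown, against 3.41 to 5.44 CPM (median 4.76) in SPP1 knockdown, and rose 2.10-fold (log2 1.07 ± 0.13, adjusted p 1.96e-05). SYT1, the calcium sensor of synaptic vesicles, had 31.0, 33.5, 34.7 and 34.8 CPM in KDM1A knockdown, against 17.7 to 26.1 CPM (median 22.5) in SPP1 knockdown (log2 0.57 ± 0.08, adjusted p 7.12e-05). Both were without overlap, and the KDM1A guides were not called different for either (log2 of guide 2 over guide 3 0.08 ± 0.16 for SCN2A and -0.11 ± 0.12 for SYT1). BDNF, a neurotrophin, fell by 0.29 without overlap, and was not called without KDM1A guide 3 replicate 1 (log2 -0.27), at adjusted p 2.62e-05 to 0.226. The neuronal counts were 2 rises and 0 falls with guides summed and 2 and 0 without KDM1A guide 2 (median log2 0.02).

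Of the receptors and relatives of osteopontin, 10 were tested with SPP1 itself. ITGB5, the beta chain of an integrin that binds osteopontin, rose by 0.16 on the log2 scale (adjusted p 0.049) and was not called without KDM1A guide 2 replicate 1 or 2 (log2 0.14 and 0.13), SPP1 guide 1 replicate 2 (log2 0.16), SPP1 guide 2 replicate 1 or 2 (log2 0.15 and 0.16) or SPP1 guide 3 replicate 1 (log2 0.15), at adjusted p 0.0076 to 0.594. CD44 (log2 0.01), ITGAV (log2 0.02), ITGB1 (log2 -0.11) and ITGB3 (log2 -0.07) were not called. The related proteins DMP1, IBSP, MEPE and DSPP were too low to test. The osteopontin counts were 1 rise and 0 falls with guides summed and 1 and 0 without KDM1A guide 2 (median log2 -0.05). In both settings the rise was the targeted gene SPP1 itself, and no receptor or relative was called. The counts were 4 and 0 without KDM1A guide 3, SPP1 included.

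Genes near the targeted loci were also read, and their counts stand against 11.9% called over all genes tested. Within 1 Mb of KDM1A, 3 of 24 tested genes were called, HTR1D (log2 1.51 ± 0.41), ASAP3 (log2 0.56 ± 0.14) and E2F2, all higher. Within 1 Mb of SPP1, 4 of 15 were called: ABCG2 (log2 -0.95 ± 0.27), PPM1K (log2 -0.30 ± 0.09) and HERC3 (log2 -0.21 ± 0.06) were lower, and the unnamed gene ENSG00000249755 was higher (log2 1.33, adjusted p 0.00158). LUZP1 beside KDM1A (log2 0.00) and PKD2 beside SPP1 (log2 0.01) were not called. These were named after their values were seen. HTR1D was not called without KDM1A guide 2 replicate 1 or 2 (log2 1.19 and 1.30), at adjusted p 0.00104 to 0.706 over the alternatives. ASAP3 was not called without KDM1A guide 2 replicate 2 (log2 0.54), at adjusted p 0.00161 to 0.42. ABCG2 was not called without KDM1A guide 2 replicate 1 or 2 (log2 -0.93 and -0.86), KDM1A guide 3 replicate 2 (log2 -0.91) or SPP1 guide 3 replicate 1 (log2 -0.78), at adjusted p 0.00747 to 0.302. PPM1K was not called without KDM1A guide 2 replicate 1 or 2 (log2 -0.30 and -0.29), KDM1A guide 3 replicate 1 or 2 (log2 -0.31 and -0.30) or SPP1 guide 2 replicate 1 or 2 (log2 -0.25 and -0.29), at adjusted p 0.00295 to 0.369. HERC3 was not called without KDM1A guide 2 replicate 1 or 2 (log2 -0.21 and -0.19), KDM1A guide 3 replicate 2 (log2 -0.21), SPP1 guide 1 replicate 1 (log2 -0.20), SPP1 guide 2 replicate 1 or 2 (log2 -0.20 and -0.21) or SPP1 guide 3 replicate 1 (log2 -0.21), at adjusted p 0.0042 to 0.35.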

How the data were processed

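RNA-seq libraries of hiF-T cells with guides against KDM1A (4) or SPP1 (6), of control guides (4) and of guides against a further gene (4) entered the fit. The authors deposited estimated counts (expected counts) per transcript, made with kallisto on GRCh38, per the submitters' processing notes; its version and the transcript release were not stated there. Of 188753 transcripts, 169797 matched a gene by Ensembl ID, and the counts were summed over 35579 genes and rounded; the remaining transcripts held 2.49 to 2.57% of the counts in the 10 libraries compared. Strand of counting is not given, so overlapping and antisense genes are uncertain. Estimated counts divide reads among near-identical copies by the model of the authors' tool. Effective lengths, deposited beside the counts, were used only for a transcript length offset as an alternative.

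Genes passing filterByExpr (minimum count 10) were tested with edgeR 4.0.16 in R 4.3.3, by the quasi-likelihood test with TMM scaling, 1 coefficient per group over all 18 libraries, and the contrast of KDM1A over SPP1. P-values were adjusted by Benjamini-Hochberg over all genes tested. The ± beside a log2 value is an approximate standard error, the absolute log2 value divided by the square root of the F statistic. Fold values are from the fitted log2 values. A prior count of 2 was used only for log2 CPM. The control's position was read on log2 of CPM plus 0.1. In simulated data the test recovered 64.2% of genes changed 1.5-fold, 86.4% of those changed 2-fold and 95.5% of those changed 4-fold. There were 4 false calls in 13350 genes. The simulated libraries were drawn independently, without an effect shared by the libraries of a guide. Between the real KDM1A libraries, chi-square per gene was 2.12 and 3.52 within a guide and 13.5 to 18.3 between guides. The simulated rates therefore do not give the error of the test on these data. Alternatives used DESeq2 1.42.0 and limma 3.58.1. Permutation tests used SciPy 1.17.1.

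Genes are named by rule: both targets, and the called genes with the 12 largest log2 rises and the 12 largest log2 falls, if their log2 CPM averaged 1 or more and all 6 pairs of guides had the same sign, and up to 5 called members of smallest p in each list (otherwise the member of smallest p). Members that were not called are named as examples. Members and lists were chosen with earlier results of these data known. Some members of the lists are not reported here. Promoter sequences are from RefSeq.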

Additional observations from a re-analysis of the deposited data

Results flagged for a closer look

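In 328 sets of values (a gene named in the text in the libraries of 1 group), 12 had 1 library far from the rest of its group (3.66%). Far is meant relative to the range of the set, so a small difference can be flagged. Chance alone flags about 1 in 20 sets of independent values, but libraries here share guides.

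Of these, 6 were SPP1 guide 3 replicate 2. It was low for HSPG2 (398 CPM, others 535 to 601 CPM), WNT5A (143 CPM, others 168 to 178 CPM), RUNX1 (43.3 CPM, others 53.9 to 59.3 CPM), TET3 (9.83 CPM, others 14.8 to 16.4 CPM) and HERC3 (33.2 CPM, others 37.2 to 39.0 CPM). It was high for KRT7 (3.41 CPM, others 1.60 to 2.18 CPM). HSPG2, WNT5A, RUNX1, TET3, HERC3 and KRT7 were each called without this library too.

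SPP1 guide 3 replicate 1 was high for TMEM132B (13.6 CPM, others 7.29 to 8.58 CPM) and OAS3 (5.52 CPM, others 2.11 to 2.68 CPM). SPP1 guide 2 replicate 1 was high for CDA (4.5 CPM, others 1.06 to 2.11 CPM) and low for IER2 (76.3 CPM, others 104 to 117 CPM). In KDM1A knockdown, guide 3 replicate 1 was low for SPP1 mRNA (126 CPM, others 133 to 135 CPM), and guide 3 replicate 2 was high for VEGFA (31.6 CPM, others 25.8 to 26.3 CPM). TMEM132B, OAS3, CDA, IER2, SPP1 and VEGFA were each called without the library named.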

How the results depend on the processing

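The 1611 called genes (934 higher, 677 lower) became 998 with the 10 libraries fitted alone (342 lower), 763 with a transcript length offset (507 higher, 256 lower), 831 with limma voom and the guide as a random effect (561 higher, 270 lower) and 244 with the libraries of a guide summed (195 higher, 49 lower). With 1 coefficient per guide, 2674 were called (1483 higher, 1191 lower). Without KDM1A guide 2, 261 were called (198 higher, 63 lower), and without SPP1 guide 2, 397 were lower. Leaving out 1 library at a time gave 775 to 1587 called genes, 529 to 984 higher and 246 to 666 lower. The cause was not tested. RLE scaling, DESeq2, no filter on low counts, and leaving out KDM1A guide 3, SPP1 guide 1 or SPP1 guide 3 gave 1272 to 1951. The share of calls that were higher was 58.0%, and 65.7% with the 10 libraries alone, 66.4% with the length offset, 67.5% with voom, 79.9% with guides summed, 75.9% without KDM1A guide 2, 64.8% without SPP1 guide 2, and 66.4% and 68.3% without KDM1A guide 2 replicate 1 and replicate 2.

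KDM1A and SPP1 mRNA were called under all 24 alternatives. GADD45B was the only named gene to turn its direction, at log2 -0.0057 without KDM1A guide 2. The test of KDM1A guide 2 against guide 3, with 832 calls, gave 821 with RLE scaling and 622 with DESeq2. The replicate block, tried though the numbers do not pair libraries (correlations of deviations between -0.03 and 0.05 over 6 pairs), gave 1443 calls. Counts of the lists by role rest on the guides, the model and single libraries: the 94 rises and 43 falls summed over the lists became 28 and 5 with guides summed, 27 and 11 without KDM1A guide 2, 67 and 20 with voom, 71 and 18 with the length offset, and 59 to 113 and 19 to 47 without 1 library. With 2 and 3 guides, differences between targets and between guides are only partly separable, and genes under about 1 CPM were mostly too low to test.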
